A study of Mus musculus with 3 samples.

Results

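The Hox genes encode homeodomain transcription factors and lie in 4 clusters, Hoxa on chromosome 6, Hoxb on chromosome 11, Hoxc on chromosome 15 and Hoxd on chromosome 2. Their values were taken from RASSF9-/- and WT mouse primary keratinocytes. A gene counted as a member when a probe set, which is a group of short oligonucleotides that reports a transcript, carried that Hox symbol and no other, and the probe set with the highest mean log2 signal stood for the gene. This gave 33 members among the 18193 genes that the array represents in the same way. The members were 9 genes of the Hoxa cluster, 9 of Hoxb, 7 of Hoxc and 8 of Hoxd. Hoxb8 and Hoxd4 had only probe sets shared with Hoxb7 and Hoxd3 and were not members, and the remaining Hox genes were not analysed here.

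The study compared epidermal keratinocytes of neonatal ICR mice, from 2 RASSF9-/- mice and 1 WT mouse, with 1 culture plate and 1 Affymetrix mouse 430 2.0 array per mouse. RASSF9-/- cells were homozygous for an insertion of an Epstein-Barr virus LMP1 transgene, which deleted part of an intron of Rassf9 close to the first exon, so the mutant cells carried the transgene as well as the disrupted gene. Rassf9, a Ras-association domain protein, had signals of 59.6 and 120.2 on RASSF9-/- arrays 1 and 2, against 478.1 on the WT array. All cells were grown to confluence in low-calcium keratinocyte serum-free medium. The labels give 48 h of culture for RASSF9-/- and 24 h for WT, whereas the methods give the same period for every sample. If the labels hold, genotype and culture time cannot be told apart. The sample descriptions carry the same date for RASSF9-/- array 1 and WT and another date for RASSF9-/- array 2.

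Genes at one end of a Hox cluster, with low paralog group numbers, are used toward the head of the embryo, and those at the other end toward the tail and in the distal limb. Paralogs are genes of different clusters that descend from the same ancestral gene and share a number. In adult and neonatal skin, Hox expression keeps a record of body position, best known in dermal fibroblasts, and Hoxc13 is needed for hair and nail formation. Hox proteins bind DNA with partners of the TALE class, Polycomb complexes keep Hox clusters silent, and Trithorax complexes and retinoic acid help to switch them on.

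The window around a transcription start was available from RefSeq, build GRCm38.p6, for 19 of the 33 members, with 21 entries of 300 bases that span the start and lie mostly upstream of it. Those of Hoxa5, Hoxa9 and Hoxb4, whose probe sets were above the bacterial controls on every array, are printed with that of Hoxd13, whose probe set was above them on none, so that promoters from both sides of the limit can be compared. Each reads 5′ to 3′ on the strand of its gene, with every CG dinucleotide, the site of mammalian DNA methylation, in capitals.
Hoxa5, chr6:52204538-52204837, minus strand: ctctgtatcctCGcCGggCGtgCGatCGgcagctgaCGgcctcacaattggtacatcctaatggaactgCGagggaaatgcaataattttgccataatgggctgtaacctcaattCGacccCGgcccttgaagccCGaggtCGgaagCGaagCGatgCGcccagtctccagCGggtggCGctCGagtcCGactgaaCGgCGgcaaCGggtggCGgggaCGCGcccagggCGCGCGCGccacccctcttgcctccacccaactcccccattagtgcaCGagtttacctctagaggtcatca
Hoxa9, chr6:52227321-52227620, minus strand: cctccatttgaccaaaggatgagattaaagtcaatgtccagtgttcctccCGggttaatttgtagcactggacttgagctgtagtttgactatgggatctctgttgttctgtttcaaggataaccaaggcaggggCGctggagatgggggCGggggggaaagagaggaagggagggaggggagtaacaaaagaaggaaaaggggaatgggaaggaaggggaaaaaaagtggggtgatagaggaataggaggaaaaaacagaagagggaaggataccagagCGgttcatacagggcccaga
Hoxb4, chr11:96318017-96318316, plus strand: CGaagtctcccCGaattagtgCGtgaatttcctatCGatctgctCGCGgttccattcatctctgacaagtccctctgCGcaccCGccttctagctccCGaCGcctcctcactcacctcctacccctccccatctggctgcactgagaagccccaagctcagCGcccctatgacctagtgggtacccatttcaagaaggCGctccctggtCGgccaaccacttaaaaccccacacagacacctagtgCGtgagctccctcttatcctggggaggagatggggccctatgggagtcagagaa
Hoxd13, chr2:74667975-74668274, plus strand: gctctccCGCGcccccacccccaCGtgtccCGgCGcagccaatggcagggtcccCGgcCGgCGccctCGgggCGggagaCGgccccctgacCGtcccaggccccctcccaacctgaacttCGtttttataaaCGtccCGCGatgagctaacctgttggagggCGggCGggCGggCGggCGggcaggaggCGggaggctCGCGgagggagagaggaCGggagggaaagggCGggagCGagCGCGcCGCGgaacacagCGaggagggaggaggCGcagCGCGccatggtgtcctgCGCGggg

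Counted on these letters, Hoxa5 held 29 CG, Hoxa9 held 4, Hoxb4 held 14 and Hoxd13 held 37. CG-rich promoters were thus found among genes on both sides of the limit. The median over the 21 Hox entries was 15, against 7 over all 32851 promoters of the table. The 4 entries of genes above the controls on every array, which include Hoxa3 with 20, had a median of 17, the 6 entries of genes above them on 1 or 2 arrays had a median of 9.5 and the 11 entries of genes above them on none had a median of 20. TATAAA, the core of the TATA box, occurred on either strand in 2 of the 21 Hox entries, Hoxd13 and the second of Hoxa10, which is 9.52%, against 13.6% of all promoters. TGATNNAT, the composite site that Hox and Pbx proteins bind together, was found on either strand in 3 of 21, those of Hoxa2, Hoxb1 and the second of Hoxd11. This is 14.3%, against 8.85% of all promoters, and none of the 4 printed held it. A match describes letters in the window only.

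To see which Hox genes gave a signal that can be told from background, each MAS5 signal was set against the 27 probe sets for Bacillus subtilis genes, which match no mouse transcript. Their highest signal over the 3 arrays was 78.4, and this served as the limit. Above it on every array were 11 of the 33 Hox genes, which is 33.3%, whereas 56.2% of all genes were above it on every array. By cluster, these were 3 of 9 in Hoxa, 5 of 9 in Hoxb, 3 of 7 in Hoxc and 0 of 8 in Hoxd. All 11 belonged to paralog groups 2 to 9, where 21 genes were measured. Within these groups they were 3 of 6 in Hoxa, 5 of 7 in Hoxb, 3 of 5 in Hoxc and 0 of 3 in Hoxd. Most Hoxd genes measured were thus outside groups 2 to 9, and the clusters differ in this as well. None of the 10 genes measured in groups 10 to 13 and neither of the 2 in group 1 was above the limit on every array. A further 10 Hox genes were above it on 1 or 2 arrays and 12 on none, where 2840 and 5128 of all 18193 genes were. The limit depends on how it is set. Taken separately for each array, 14 genes were above it, with Hoxa13, Hoxc4 and Hoxd8 added to the 11. At the 95th percentile of the controls, a signal of 47, there were 16, with Hoxa2 and Hoxb5 also added, so that Hoxa had 5 genes and Hoxd had 1.

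**Figure D1:**
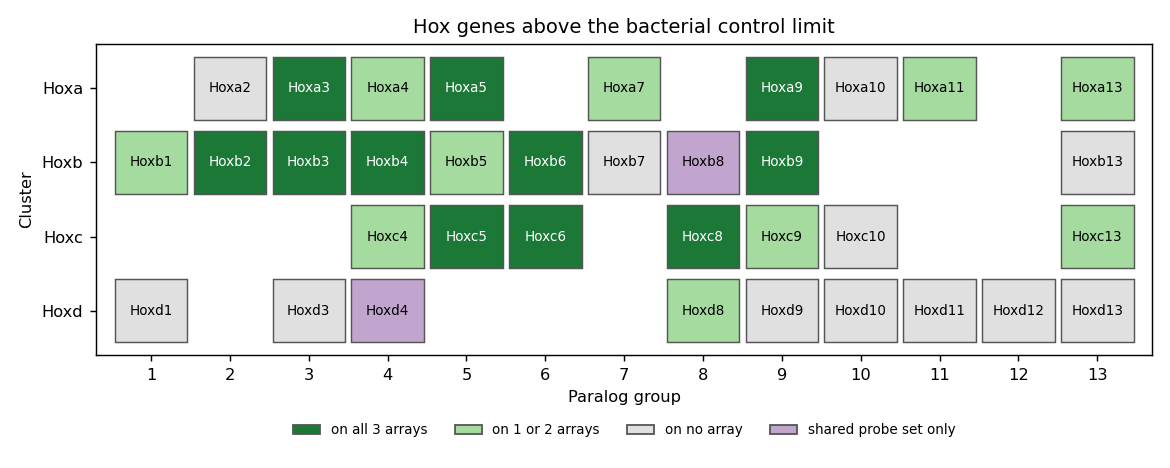
Each box is a Hox gene, placed by cluster (rows) and paralog group (columns), and its fill gives the number of arrays on which the brightest probe set was above the bacterial control limit of 78.4. Genes not analysed here have no box. The 11 genes above it on all 3 arrays lie in paralog groups 2 to 9 of Hoxa, Hoxb and Hoxc, and Hoxd has none.

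The number of Hox genes above the limit differed between the 3 arrays. Above it were 16 of 33 on RASSF9-/- array 1, 13 on RASSF9-/- array 2 and 17 on the WT array. Over all 18193 genes the counts were 12061, 11156 and 11504 in the same order, so array 2 was lowest there too. The highest bacterial control was 78.4 on RASSF9-/- array 1, 51.6 on RASSF9-/- array 2 and 36.1 on WT, so array 1 set the limit. Signals of different probe sets depend on the probes as well as on the transcript, and levels were therefore compared between arrays only, not between genes.

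The Hoxb cluster had the most genes above the limit. Hoxb2, which directs the identity of hindbrain segments, had signals of 976.1 and 703.3 on RASSF9-/- arrays 1 and 2, against 767.2 on WT. Hoxb3, also a hindbrain regulator, had 496.5 and 406.8 in RASSF9-/- against 392.3 in WT. The WT signal of Hoxb2 lay between those of the RASSF9-/- pair, whereas both RASSF9-/- signals of Hoxb3 were above WT, array 2 only slightly. Hoxb4, known for its effect on self-renewal of blood stem cells, had 334.3 and 334.8 in RASSF9-/- against 358.9 in WT. Hoxb6, a regulator of the thoracic skeleton, had 465.3 and 316.6 in RASSF9-/- against 560.4 in WT. By their brightest probe sets both genes were lower on each RASSF9-/- array than on WT. Hoxb4 was lower by 0.10 on the log2 scale on each array and Hoxb6 unequally. A second probe set of Hoxb4 had 155.1 and 63.7 in RASSF9-/- against 86 in WT. It was higher than WT on array 1 and lower, under the limit, on array 2. Hoxb9, which patterns the ribs, had 282.3 and 339.6 in RASSF9-/- against 256.7 in WT and was with Hoxb3 the other gene higher on both RASSF9-/- arrays. Hoxb5, expressed in the developing gut and lung, had 136.5 and 49.8 in RASSF9-/- against 92.7 in WT, with RASSF9-/- array 2 under the limit. Hoxb1, which specifies the fourth hindbrain segment, had 82.5 and 10.9 in RASSF9-/- against 32.5 in WT, so it was above the limit on RASSF9-/- array 1 alone. The probe set shared by Hoxb8 and Hoxb7 was above the limit throughout, with 87.6 and 85.1 in RASSF9-/- against 135.3 in WT. Hoxb7 by its own probe set and Hoxb13 were under the limit on every array, so the shared signal cannot be assigned to either gene.

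In the Hoxa cluster all 3 genes above the limit had the WT signal between the RASSF9-/- pair by their brightest probe set. Hoxa5, which is needed for lung and respiratory tract formation, had 756.9 and 270.4 on RASSF9-/- arrays 1 and 2, against 476.3 on WT. Hoxa9, best known in blood progenitors and leukaemia, had 308.2 and 189.1 in RASSF9-/- against 208.8 in WT. Hoxa3, required for the thymus and parathyroid, had 186.2 and 113.4 in RASSF9-/- against 129.1 in WT. RASSF9-/- array 1 was thus above WT and array 2 below it for each by that probe set. The other probe sets of Hoxa3 were lower than WT on both RASSF9-/- arrays. The brightest of these had 118.4 and 72 in RASSF9-/- against 164.4 in WT, with array 2 under the limit. The rest were under it on every array. The other 4 Hoxa genes that passed the limit did so on 1 array. Hoxa7, of the trunk, had 18.9 and 70.8 in RASSF9-/- against 114.7 in WT. Hoxa11, which patterns the forearm and the uterus, had 39.1 and 70.9 in RASSF9-/- against 99.4 in WT, and Hoxa4, which patterns the neck vertebrae, had 38.2 and 44.1 in RASSF9-/- against 80 in WT. All 3 were above the limit on the WT array alone, and their RASSF9-/- signals were under it. Hoxa13, which acts in digits and the urogenital tract, had 81.7 and 58.6 in RASSF9-/- against 55 in WT, with RASSF9-/- array 1 alone above the limit.

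In the Hoxc cluster the genes above the limit were the neighbours Hoxc5, Hoxc6 and Hoxc8. Hoxc8, which patterns thoracic vertebrae and brachial motor neurons, had 566.4 and 272.1 on RASSF9-/- arrays 1 and 2, against 565.5 on WT. Hoxc6, also a thoracic and brachial regulator, had 468.9 and 388.1 in RASSF9-/- against 535.1 in WT. Hoxc5, of the cervical and upper thoracic region, had 314.6 and 232.1 in RASSF9-/- against 327.2 in WT. For these 3 genes RASSF9-/- array 1 differed from WT by 0.19 or less on the log2 scale, while array 2 was lower by 0.46 to 1.06. Hoxc4, which acts in the neck and oesophagus, had 296.1 and 54.9 in RASSF9-/- against 186.1 in WT, the RASSF9-/- pair lying on either side of WT and array 2 under the limit. Hoxc9, which sets thoracic motor neuron identity, had 38.7 and 145.5 in RASSF9-/- against 32 in WT and was above the limit on RASSF9-/- array 2 alone.

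Hoxc13, the hair and nail regulator at the far end of the cluster, was lower on both RASSF9-/- arrays than on WT. Its signals were 33.2 and 88.5 on RASSF9-/- arrays 1 and 2, against 220 on WT, so RASSF9-/- array 1 was within the bacterial controls and array 2 just above them. With array 1 raised to the limit, Hoxc13 was at least 2.64-fold lower in RASSF9-/- than in WT. Hoxa4, Hoxa7 and Hoxa11 passed the limit on WT alone, so their lower signals on both RASSF9-/- arrays follow from that and add nothing to Hoxc13. Other genes passed it through RASSF9-/- alone, Hoxa13, Hoxb1 and Hoxd8 on array 1 and Hoxc9 on array 2.

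In the Hoxd cluster 1 of 8 genes passed the limit anywhere. Hoxd8, of the lower trunk, had 122.7 and 64.5 on RASSF9-/- arrays 1 and 2, against 64.6 on WT, so array 1 alone exceeded the limit. The probe sets shared by Hoxd4 and Hoxd3 gave at most 19.1 on any array. The 12 Hox genes above the limit on no array were Hoxa2, Hoxa10, Hoxb7, Hoxb13, Hoxc10, Hoxd1, Hoxd3 and Hoxd9 to Hoxd13. Their signals ran between 2.2 and 69.9, and no fold is given for them because both genotypes were under the limit. The highest bacterial control on the WT array itself was 36.1, and Hoxa2, Hoxa10, Hoxb7, Hoxd9 and Hoxd13 exceeded it there.

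**Figure D2:**
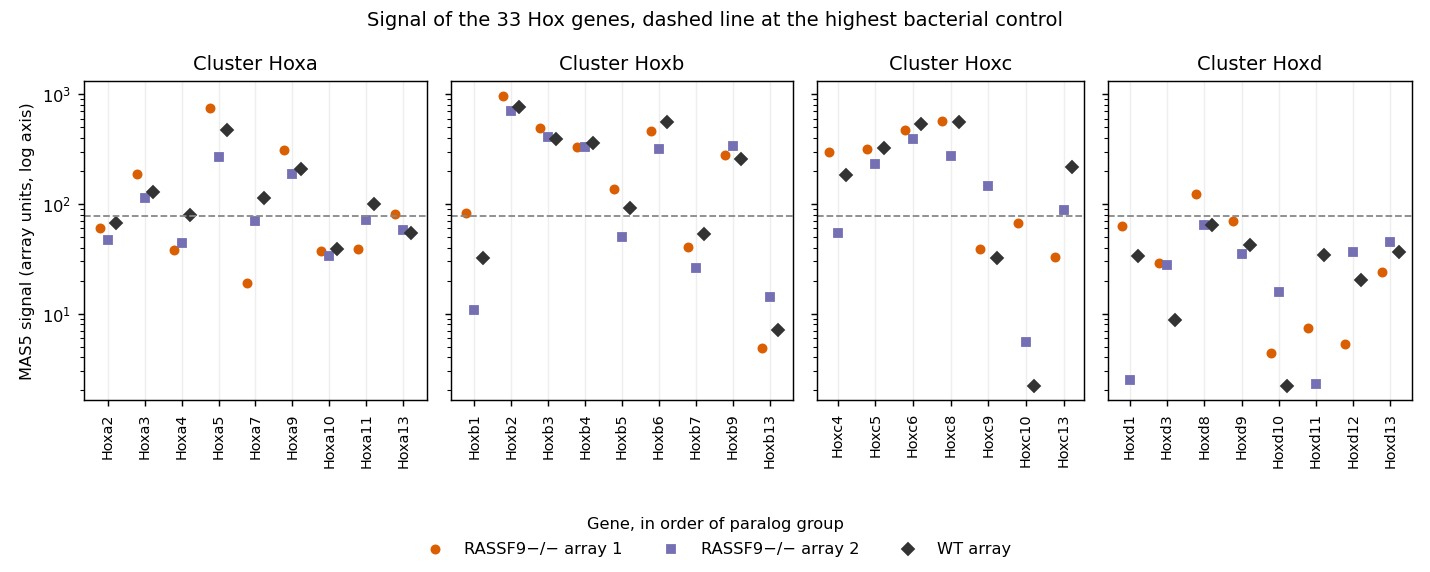
MAS5 signal (log axis, array units) of each of the 33 Hox genes on RASSF9-/- array 1 (circles), RASSF9-/- array 2 (squares) and the WT array (diamonds), in 4 panels by cluster and in order of paralog group. The dashed line is the limit of 78.4, and in the Hoxd panel only Hoxd8 on RASSF9-/- array 1 lies above it.

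The question for each gene was whether RASSF9-/- keratinocytes differed from WT by more than the spread between arrays. In 14 Hox genes the mean log2 signal passed the filter, set at a signal of 82.7, and limma was fitted to these together with all other genes that passed, 11089 in total. The spread comes from the RASSF9-/- pair and from all genes, because the single WT array has no replicate and was assumed to vary like the pair. The Benjamini-Hochberg adjusted p of limma was 0.05 or more for all 14 Hox genes, so 0 were called, where 0.0812% of all genes tested, 9 genes, were called. At an unadjusted p under 0.05 there was 1 Hox gene, Hoxc13, where 5.55% of all genes passed. Hoxc13 passed the filter through its WT signal, and its RASSF9-/- array 1 was in background, so this count is a description that supports nothing about the gene. Its fitted log2 difference was -2.02 (limma adjusted p = 0.891) and became -1.40 with low signals raised to the limit. Rassf9 itself, also with RASSF9-/- array 1 under the limit, was at least 4.93-fold lower in RASSF9-/- with a limma adjusted p of 0.530, so the disrupted gene did not pass the threshold in this design either.

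The 11 Hox genes above the limit on every array had limma log2 differences between -0.55 and 0.27, each within or close to its own SE, with limma adjusted p = 1.00. Those of Hoxb6 (-0.55, SE 0.50) and Hoxc8 (-0.53, SE 0.58) were the lowest of the 11. Hoxb9 (0.27, SE 0.51), Hoxa9 (0.21, SE 0.58) and Hoxb3 (0.20, SE 0.47) were the highest. Hoxc4 and Hoxb5 each had RASSF9-/- array 2 under the limit. The fitted difference of Hoxc4 was -0.55 (SE 1.02) and became -0.29 with low signals raised to the limit, and that of Hoxb5 was -0.17 (SE 0.82) and became 0.16. The intervals are wide and do not show that these genes were equal in the genotypes. Among the 11, the narrowest, for Hoxb2, ran between -0.94 and 1.16 on the log2 scale, and the widest, for Hoxa5, between -1.72 and 1.58. The median difference of the 11 was -0.07, against -0.01 for all genes above the limit.

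**Figure D3:**
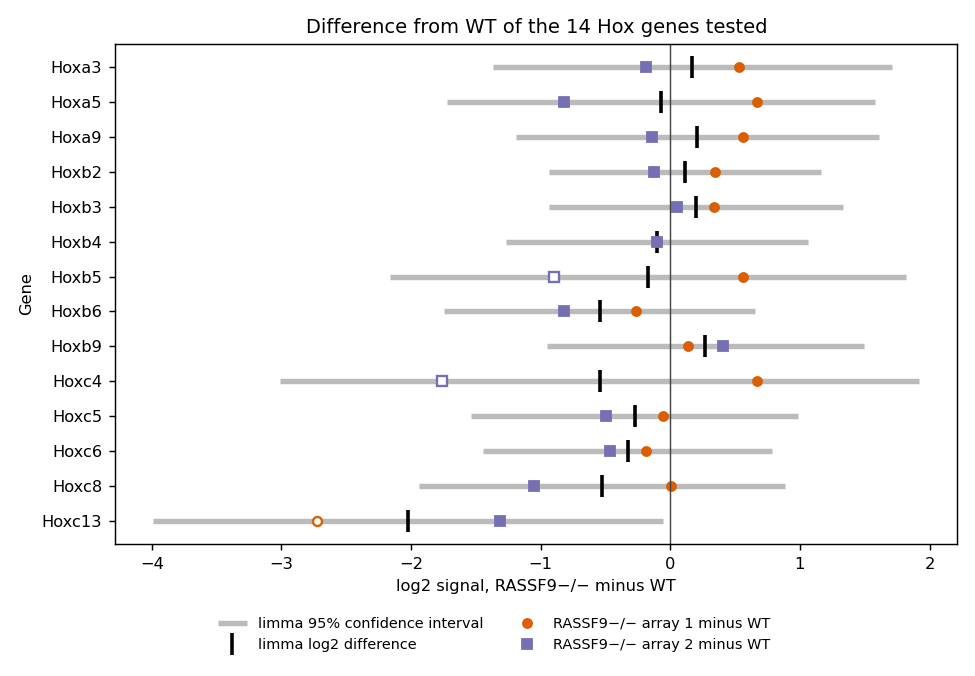
Log2 signal of RASSF9-/- minus WT for the 14 Hox genes tested, as single arrays (circles for RASSF9-/- array 1, squares for array 2), as the limma estimate (black tick) and as its 95% confidence interval (grey bar). Open symbols mark RASSF9-/- arrays under the limit of 78.4, in Hoxb5, Hoxc4 and Hoxc13, for Hoxb4 the circle lies under the square, and the bars of the 11 genes above the limit on every array all cross 0.

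The RASSF9-/- arrays lay on the same side of WT for 6 of the 11 Hox genes above the limit on every array and on opposite sides for 5, where 33.4% of all genes above the limit had them on opposite sides. By the brightest probe set, 4 of the 11 were lower than WT on both RASSF9-/- arrays, namely Hoxb4, Hoxb6, Hoxc5 and Hoxc6. Of all genes above the limit, 32.9% were. Hoxb3 and Hoxb9 were higher on both, as were 33.7% of all genes. The other 5, Hoxa3, Hoxa5, Hoxa9, Hoxb2 and Hoxc8, were higher on RASSF9-/- array 1 and lower on array 2. Lower than WT were 4 of 11 on array 1, against 46.7% of all genes, and 9 of 11 on array 2, against 52.5%. Array 2 was below array 1 for 9 of 11, against 54% of all genes. Both differences share the WT array, so their agreement was not tested. The array that shares its date with WT is array 1, and on it the median difference of the 11 genes was 0.14, against -0.19 on array 2.

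By cluster, the genes above the limit had a median log2 difference of 0.17 in Hoxa, 0.11 in Hoxb and -0.33 in Hoxc, against -0.01 for all genes above the limit. On RASSF9-/- array 1 alone these medians were 0.56, 0.14 and -0.06, and on array 2 alone -0.19, -0.10 and -0.50. The order of the clusters by their median thus changed between the arrays, with Hoxc lowest on each and Hoxa highest on array 1 and Hoxb on array 2. With the mean of each gene's probe sets in place of the brightest, the medians were -0.29 in Hoxa, 0.05 in Hoxb and -0.53 in Hoxc, which turned the direction for Hoxa. For Hoxa3 and Hoxc5 these means took in probe sets under the limit on every array. Each median rests on 3 or 5 genes, and genes of a cluster are not replicates, so no test was made.

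Different probe sets of the same Hox gene gave a further check, because they report on the same gene within the same RNA. In the data, 4 members, Hoxa5, Hoxa9, Hoxb3 and Hoxc6, had more than 1 probe set above the limit on every array. In 0 of the 4 did the probe sets agree in direction on both RASSF9-/- arrays. The same count was not made over all genes, so it is not shown to be particular to Hox genes. Some of these directions rest on small log2 differences. They were 0.05 for the brightest probe set of Hoxb3 on array 2 and 0.04 for the second of Hoxc6 on array 1. The second probe set of Hoxa5 had signals of 482.8 and 345.5 in RASSF9-/- against 580 in WT, lower on both arrays, whereas the brightest was higher on array 1. The second of Hoxa9 had 83.9 and 208.2 in RASSF9-/- against 129.6 in WT, the reverse of the brightest on both arrays. For Hoxb3 the second had 260.5 and 136.7 in RASSF9-/- against 207.8 in WT, so the probe sets differed in direction on array 2. The second of Hoxc6 had 517.2 and 348.7 in RASSF9-/- against 502.8 in WT, and the third had 199.6 and 158 against 120.2 in WT, higher on both arrays where the brightest was lower on both. Between probe sets of a gene the log2 difference varied by up to 1.19 on array 1 and up to 0.92 on array 2. The brightest probe sets of Hoxa5 and Hoxc6 are of the x type and that of Hoxa3 is of the s type, classes that the manufacturer marks as able to bind related transcripts, and paralogs of a group are similar in sequence. Hoxc13 has a single probe set, so its difference could not be set against a second.

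**Figure D4:**
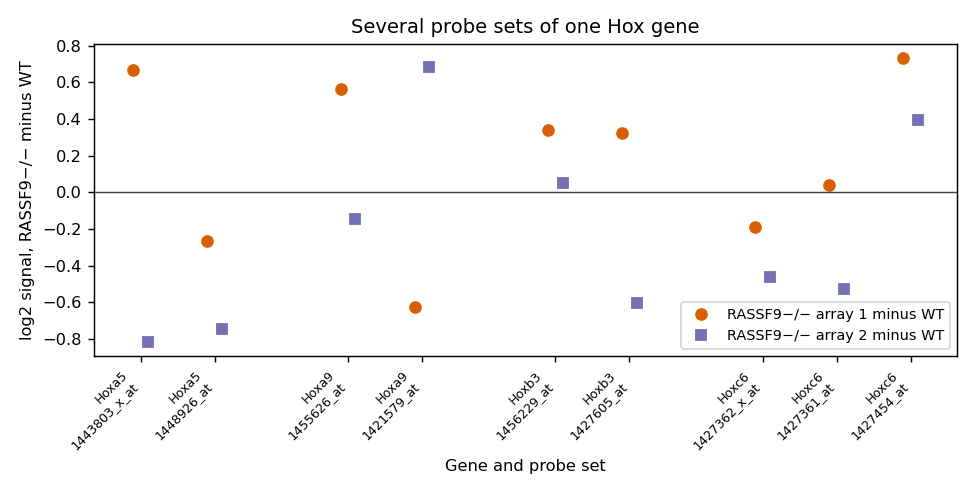
Log2 signal of RASSF9-/- minus WT for each probe set above the limit on every array, in the 4 Hox genes with more than 1, for RASSF9-/- array 1 (circles) and array 2 (squares). Within Hoxa9 the probe sets lie on opposite sides of 0 on both arrays, and within Hoxc6 they span 0.92 on each.

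Antisense transcripts lie within the Hox clusters and can share their regulation. Hoxb5os, antisense to Hoxb5, had 124.3 and 67.7 on RASSF9-/- arrays 1 and 2, against 71.3 on WT, above the limit on RASSF9-/- array 1 alone. Hoxd3os1 had 8.7 and 7.3 in RASSF9-/- against 94.3 in WT, with both RASSF9-/- arrays in background, which makes it at least 1.20-fold lower in RASSF9-/-. Hoxd3os1 passed the limit on WT alone, so this direction follows from that. Both were single probe sets near the limit, and a second probe set of Hoxd3os1 was under it on every array.

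Genes that act with, on or around the Hox clusters were described from lists, and no gene of any list was called by limma after adjustment. Over all 11089 genes tested, 3628 were lower and 3728 higher than WT on both RASSF9-/- arrays. Among the TALE cofactors 7 genes were tested, of which 3 were lower and 1 higher on both arrays, with a median log2 difference of -0.25. Pbx3, a DNA-binding partner of Hox proteins, had 451.2 and 693.2 in RASSF9-/- against 1285.2 in WT (log2 difference -1.20, SE 0.46, limma adjusted p = 0.843). Both RASSF9-/- arrays were well below WT. Meis1, a further partner, had 175.6 and 175.9 in RASSF9-/- against 125.6 in WT, above WT on each array. Pknox1, also of the TALE class, had 286.6 and 276.7 in RASSF9-/- against 335.1 in WT, and Pbx2 had 749.3 and 499.4 against 770.3 in WT.

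The Polycomb list had 16 genes tested, 4 lower and 6 higher on both arrays, with a median of 0.01. Ezh2, the methyltransferase that lays down the silencing mark of histone H3 lysine 27, had 1405.6 and 1426 in RASSF9-/- against 998.9 in WT. Its relative Ezh1 had 645.3 and 880.2 in RASSF9-/- against 1194.4 in WT, so the enzymes lay on opposite sides of WT, by 0.50 and -0.66 on the log2 scale. Jarid2, which recruits that complex, had 309.8 and 306.6 in RASSF9-/- against 525.2 in WT, and Cbx6, a reader of the mark, had 532.6 and 408.5 against 735.8 in WT. In the list of Trithorax genes and demethylases 11 were tested, 5 lower and 3 higher on both arrays, with a median of -0.21. Men1, a subunit of the complexes that activate Hox genes, had 670.7 and 724.4 in RASSF9-/- against 1024.2 in WT. Kdm6b, which removes the silencing mark, had 1582.5 and 1258.9 in RASSF9-/- against 1856.6 in WT. The core subunits Ash2l and Dpy30 were above WT on both arrays, with log2 differences of 0.31 and 0.26. None of these differences exceeded 2 times its SE.

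Retinoic acid signalling, an inducer of Hox genes, had 11 genes tested, 5 lower and 1 higher on both arrays, with a median of -0.36. Stra6, a cell-surface receptor that takes up retinol, had 2155.6 and 663.7 in RASSF9-/- against 89.9 in WT. This was the largest log2 difference of the list, at 3.73 (SE 0.73, limma adjusted p = 0.335). Crabp1 and Crabp2 bind retinoic acid within the cell. Crabp2 had 3310.2 and 5971.6 in RASSF9-/- against 9403.7 in WT, and Crabp1 had 251.8 and 165.4 against 434.1 in WT. Their log2 differences were -1.08 (SE 0.43) and -1.09 (SE 0.55), with both RASSF9-/- arrays below WT. Aldh1a2, a retinaldehyde dehydrogenase that makes retinoic acid, had 7 and 10.2 in RASSF9-/- against 96 in WT, at least 1.22-fold lower. Aldh1a2 passed the limit on WT alone, so its direction follows from that, and it was not tested. Of the upstream regulators 3 were tested, 1 lower and 0 higher on both arrays, with a median of 0.01. Egr2, the hindbrain activator of Hoxb2 and Hoxa2, had 241.2 and 188.3 in RASSF9-/- against 636.6 in WT (log2 difference -1.58, SE 0.51, limma adjusted p = 0.694). The RASSF9-/- signals of Hoxb2 lay on either side of WT, and a link to Egr2 was not tested. Zbtb16, a zinc finger repressor of Hox genes in the limb, had 165.1 and 106.9 in RASSF9-/- against 25.4 in WT, at least 1.69-fold higher. Zbtb16 passed the limit on the RASSF9-/- arrays alone, so its direction follows from that, and it was not tested. Cdx1, Cdx2 and Cdx4, activators of trunk Hox genes, were under the limit on every array and were named after their values were seen.

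Genes that flank the clusters had a median log2 difference of 0.11 over 14 tested, with 2 lower and 6 higher on both arrays. Calcoco1, a coiled-coil protein gene next to the Hoxc cluster, had 588.7 and 291.4 in RASSF9-/- against 1067.4 in WT (log2 difference -1.37, SE 0.56). Cbx5, a heterochromatin protein gene on the other side of Hoxc, had 1291.6 and 1174.3 in RASSF9-/- against 910.6 in WT. Neighbours of Hoxc thus lay on opposite sides of WT. Ttll6, a tubulin-modifying enzyme gene beside Hoxb, had 113.5 and 112 in RASSF9-/- against 70.2 in WT, with WT under the limit. Tax1bp1, an autophagy receptor gene near Hoxa, had 3160 and 3172.1 in RASSF9-/- against 4002.7 in WT.

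Hoxc13 acts in hair differentiation, and its known targets and the hair keratins were read as a list. Of 16 measured, 8 were above the limit on no array and 5 were tested, of which 4 were lower and 1 higher on both arrays, with a median of -0.37. Foxn1, the nude gene, which Hoxc13 activates in the hair follicle, had 97.1 and 132.3 on RASSF9-/- arrays 1 and 2, against 291.7 on WT (log2 difference -1.36, SE 0.59, limma adjusted p = 0.918). Foxq1, the satin gene of the hair medulla and a further Hoxc13 target, had 343.9 and 382.2 in RASSF9-/- against 543.5 in WT. Both genes were lower on each RASSF9-/- array, and neither passed the test. Lower on both arrays were also 3628 of all 11089 genes tested, and every difference shares the WT array. A link of these genes to the Hoxc13 signal was not tested. The hair keratin Krt84 had 49.2 and 5.4 in RASSF9-/- against 85.7 in WT, and Krt83 had 21.2 and 133.3 against 5.1 in WT, each above the limit on 1 array only.

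Markers of cell types were read in the same arrays, since in a bulk sample fewer cells of a type and less RNA per cell cannot be told apart. All 6 keratinocyte markers were above the limit on every array. Krt14, the basal keratin, had 38752 and 38300 in RASSF9-/- against 38140 in WT, whereas Trp63, the transcription factor of basal keratinocytes, had 1460 and 1543 against 3239 in WT. Of 13 dermal fibroblast markers measured, 9 were above the limit on every array, and the summed signal of the 13 was 6643 and 4615 in RASSF9-/- against 4815 in WT. Their median log2 difference was -0.28 over 11 tested, with 6 lower and 2 higher on both arrays. Postn, a matrix protein, had 3687 and 471.3 in RASSF9-/- against 1438 in WT, so RASSF9-/- array 2 was below array 1. Without Postn the other 12 markers summed to 2957 and 4144 in RASSF9-/- against 3377 in WT, which turned the direction of the sum on both arrays. Vim, an intermediate filament protein, had 1308 and 2832 in RASSF9-/- against 1299 in WT, with array 2 above array 1. On each array Vim was the largest signal of those 12 markers, and on array 2 their sum was above WT only through Vim. Dcn, Twist2 and Prrx1 also had array 2 above array 1, whereas Col1a1, Col1a2, Col3a1, Lum, Pdgfra, Pdgfrb and Thy1 had it below. Col1a1, a collagen chain, had 243.2 and 143.4 in RASSF9-/- against 429.4 in WT, and Twist1 was under the limit on every array. All 8 melanocyte markers were above the limit on every array, with a summed signal of 25346 and 35634 in RASSF9-/- against 29748 in WT. Fewer of the other lists were, with 2 of 6 for endothelium and 3 of 8 for leukocytes. In endothelium these were Kdr and Cldn5, while Pecam1 and Cdh5 were under the limit throughout. In leukocytes they were Csf1r, Adgre1 and Cd68, while Ptprc was under it throughout. Csf1r had 791.8 and 1685.7 in RASSF9-/- against 784.4 in WT. Schwann cell markers had 1 of 2, which was Mbp, muscle had 1 of 4, which was Actc1, and adipocytes had 0 of 3. The part of these cells in the Hox signals was not tested.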

How the data were processed

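Biotin-labelled cRNA of 2 RASSF9-/- samples and 1 WT sample was hybridized to Affymetrix mouse 430 2.0 arrays. The authors deposited MAS5 signals, an intensity on a linear scale for each probe set, with a trimmed mean of 500 on every array (checked on the values with 2% trimmed from either end). MAS5 subtracts mismatch signal, so low values are noisy, and no detection calls were used here. Log2 signals were computed with no further normalization and no pseudocount. Of 45037 probe sets that are not controls, 34945 carry 1 gene symbol in the platform annotation, 932 several and 9160 none, and a gene was named only from those with 1.

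The brightest probe set stood for each gene. Genes at or above the 50th percentile of mean log2 signal were fitted in R 4.3.3 by limma 3.58.1 (lmFit, then eBayes allowing a trend with intensity), and two-sided p-values were adjusted by Benjamini-Hochberg over 11089 genes. The fit had 1 residual and 5.31 prior degrees of freedom. The script was tested on simulated data. Figures were drawn with matplotlib 3.10.9. Where an array was under the bacterial limit of 78.4, its signal was raised to the limit and the fold written as at least that size. Precision is limited by the number of arrays, and p-values measure only the spread between these samples.

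The Hox genes, the gene lists and the alternatives were chosen with earlier results of these data known. Named were all Hox genes above the limit on at least 1 array and, from each list of related genes, up to 4 whose RASSF9-/- arrays both lay on one side of WT and which were above the limit on at least 1 array, ranked by the smaller of the 2 differences. Markers, antisense transcripts and Rassf9 were read as checks, and the individual markers were named after their values were seen. Some genes of the lists are not reported here. Alternatives were division by the array median, quantile normalization, a pseudocount of 32, raising low values to the limit, averaging the probe sets of a gene, no filter, the 75th percentile as filter, no trend, the methods' t-test, other limits and leaving out each RASSF9-/- array.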

Additional observations from a re-analysis of the deposited data

How the results depend on the processing

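The absence of a called Hox gene held under every alternative with a test. Of 113 refits of single Hox genes, 110 kept their direction and side of the threshold, with adjusted p between 0.773 and 1.00, and Hoxc13 kept its direction with the same range of adjusted p. In many of these refits the direction could not change. No filter, the 75th percentile filter, no trend and the t-test leave the log2 difference as it was. Raising low values does so for genes above the limit on every array, and averaging for genes with a single probe set. Hoxc13 was not under an unadjusted p of 0.05 under quantile normalization or with no filter, and it was not tested under the 75th percentile filter. Hoxa5 was 0.0011 under quantile normalization (-0.07 as reported), Hoxb4 was 0.054 as the mean of its probe sets (-0.10) and Hoxb5 was 0.16 with low values raised to the limit (-0.17), where array 2 had been under it. The number of genes called over the whole table, 9, fell to 0 under quantile normalization, with low values raised and without the intensity trend, to 5 with the pseudocount and with the 75th percentile filter, and to 4 with the methods' t-test, which had 493 at an unadjusted p under 0.05. The cause was not tested. Under quantile normalization, with low values raised and without the trend, 603, 537 and 608 genes had an unadjusted p under 0.05. The Hox genes higher than WT on both RASSF9-/- arrays, 2 as reported, were 4 after division by the array median and 1 with the mean of probe sets. At the 95th percentile of the bacterial controls the Hoxa cluster had 5 genes above the limit and the Hoxd cluster 1, and with a limit for each array the Hoxd cluster also had 1.

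Leaving out a RASSF9-/- array gives values with no test. The median of the 14 Hox genes tested, -0.14 with both arrays, then ran between -0.48 without RASSF9-/- replicate 1 and 0.24 without RASSF9-/- replicate 2, and the median of the Hoxb genes between -0.10 and 0.14. Counts of Hox genes lower than WT ran between 4 and 9 and of those higher between 2 and 7, with 9 lower without replicate 1 and 7 higher without replicate 2. No paired analysis was possible because WT has 1 array. Under the limit on at least 1 array were 22 of the 33 Hox genes, 3 of them among the 14 tested.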
